A study of Drosophila melanogaster with 2 samples.

Results

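Nuclear genes whose products keep, copy and express mitochondrial DNA were examined for recovery of TFAM at their own loci. They are the 10 genes TFAM, mtSSB, PolG2, mtTFB2, mTTF, mTerf3, mtTFB1, bsf, PNPase and Lon, chosen by name from the Ensembl annotation, out of 13945 protein-coding genes on the nuclear chromosomes. Every one of the 10 symbols was found there. Chromatin immunoprecipitation with sequencing had been run on whole Drosophila melanogaster embryos of a transgenic line, TFAM-GFP, which makes TFAM with GFP joined to its C terminus. The embryos were 0 to 16 h old and of both sexes, and sheared fragments of 200 to 800 bp were used. There was 1 group, with 2 samples, biological replicates 3 and 4, and both carry the same transgene. The sample descriptions name an anti-GFP antibody, whereas the antibody field names TFAM. The labels describe the line as an insertion that targets TFAM, and the promoter driving the tagged copy was not stated in them. Control peak lists or an untagged line were not analysed here, which left no groups to compare and no test to make, and the values are a description of 4 peak lists on the dm6 build.

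Mitochondria carry their own small genome, but nearly all proteins that maintain it are encoded in the nucleus and imported. TFAM, an HMG-box protein, coats and compacts mitochondrial DNA. A dedicated polymerase and the single-stranded DNA binding protein mtSSB replicate it, and a dedicated RNA polymerase with transcription factors of its own reads it into long transcripts that are then cut, stabilised or degraded. The matrix protease Lon is known in fly cells to degrade TFAM. In flies, the factor DREF, which binds the DNA replication-related element (DRE), is known to act at promoters of several of these genes, PolG2 among them.

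PNPase, Lon and mtSSB, 3 of the 10 loci, carried a peak in the thresholded list (1290 peaks). The authors derived that list by rank reproducibility between replicates. The sequence 100 bp either side of the PNPase and Lon summits is shown first, because these windows hold the highest values among the 10 genes. Each is dm6, read from the RefSeq Release 6 genome on the minus strand, that of its gene. Capitals mark matches to the motifs searched, which are TATAAA or its reverse complement, and the PNPase window has none. PNPase lies at chr3R:31404558-31404758 and Lon at chr3L:19612201-19612401.
PNPase: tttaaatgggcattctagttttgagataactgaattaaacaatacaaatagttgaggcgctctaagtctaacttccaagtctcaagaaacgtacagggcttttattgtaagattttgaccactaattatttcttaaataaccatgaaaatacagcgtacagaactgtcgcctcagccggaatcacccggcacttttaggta
Lon: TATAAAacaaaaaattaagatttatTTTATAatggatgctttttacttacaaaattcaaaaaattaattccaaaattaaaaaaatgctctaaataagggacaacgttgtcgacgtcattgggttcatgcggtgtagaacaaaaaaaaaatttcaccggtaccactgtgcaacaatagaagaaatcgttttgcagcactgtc

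A summit was assigned to a gene when it lay within 500 bp of any annotated start site. By that measure 3 of the 10 genes had a thresholded summit, beside 5.35% of all protein-coding genes (746 of 13945). Within 2 kb of the gene body the same 3 genes had one, beside 12.0% of all protein-coding genes. The 7 others had none within either distance. Their nearest thresholded summits lay from 2361 bp (PolG2) to 154439 bp (mtTFB1) from a start site.

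**Figure D1:**
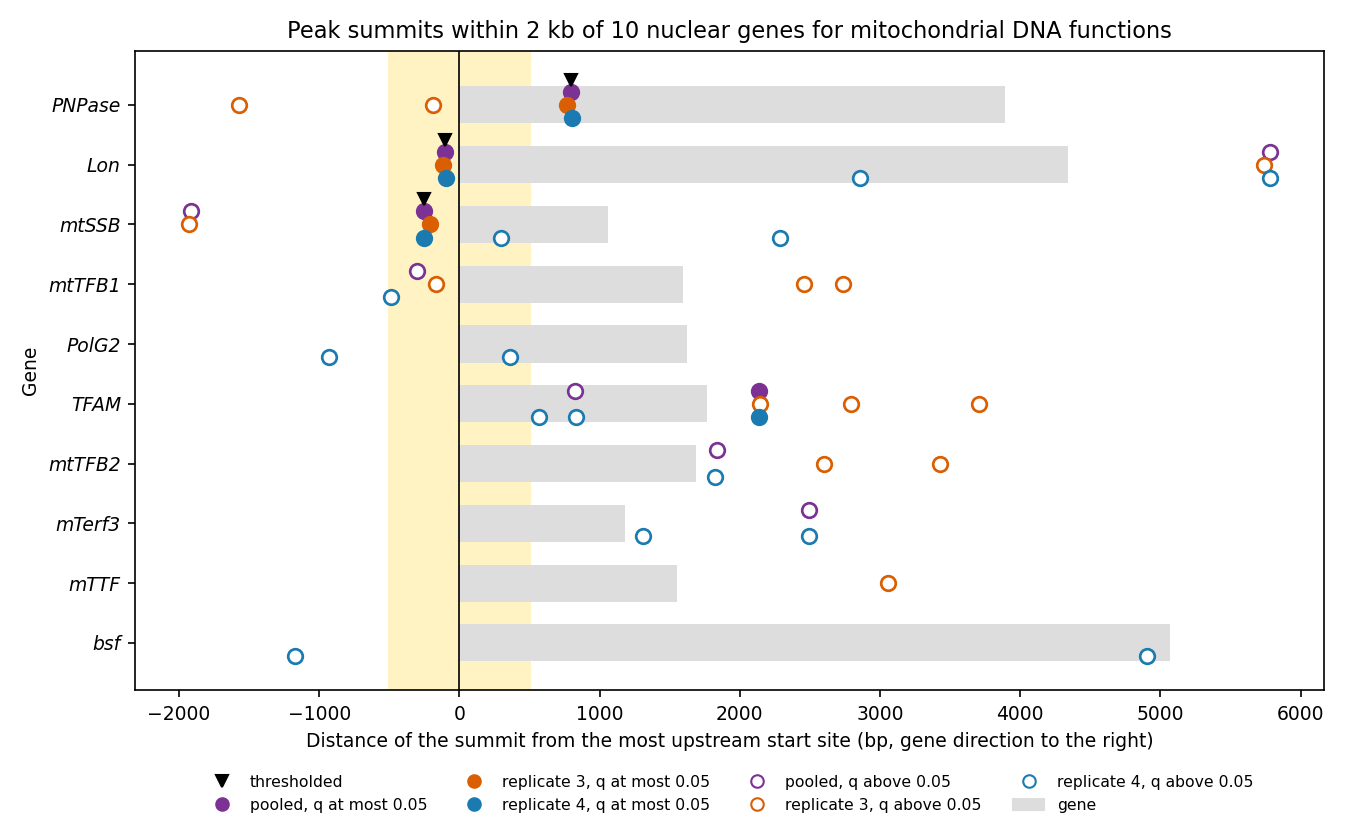
Summits of the pooled list and of the lists of replicates 3 and 4 within 2 kb of each of the 10 genes. The x axis gives the distance in bp from the most upstream start site, grey bars are the genes, the yellow band marks 500 bp either side of that start, filled points have a q-value of 0.05 or less, and triangles mark thresholded summits. Both replicates have filled points at PNPase (near its inner start sites, right of the band), Lon and mtSSB, and TFAM has filled points from the pooled list and replicate 4 beyond its end.

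The other 3 lists hold background regions as well as peaks. The pooled list, called on both replicates together, holds 9598 regions, replicate 3 holds 13396 and replicate 4 holds 13455. The value of a region is the authors' own, on a scale that differs between lists, and each region also has a q-value. The thresholded list was the 1290 pooled regions of highest value, with no pooled region above its lowest value (92.4) left out. A peak's place in it thus followed from its pooled value, whatever its own rank in each replicate. With background included, 4 of the 10 genes had a pooled summit within 500 bp of a start (25.3% of all protein-coding genes), 4 had one in replicate 3 (29.0%) and 5 had one in replicate 4 (28.8%). Restricted to q-values of 0.05 or less, 3 had one in replicate 3 (11.9% of all protein-coding genes) and 3 in replicate 4 (6.81%). In both replicates these were again PNPase, Lon and mtSSB.

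The gene with the highest value was PNPase, which encodes a mitochondrial exoribonuclease of RNA turnover (FBgn0039846, 3R 31401560 to 31405452, minus strand). Its thresholded peak (3R 31404547 to 31404768) had a value of 563. That was rank 31 of 1290, and rank 9 among nuclear peaks, since the mitochondrial genome held 22 peaks. Its value was 235 in replicate 3 and 323 in replicate 4, at ranks 41 of 13396 and 30 of 13455. The replicates thus placed it at nearly the same height in their lists, at percentiles 99.7 and 99.8.

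The PNPase peak stood inside the gene and not at its outermost start. The gene has 3 annotated start sites, at 31405452, 31404740 and 31404568. The thresholded summit, at 31404658, lay between the inner pair, in the 5' UTR, 82 bp downstream of the middle start and 794 bp downstream of the outermost one. Replicate 3 placed the summit 765 bp and replicate 4 placed it 800 bp from the outermost start, 35 bp apart. At the outermost start there was only 1 replicate 3 region, with a value of 14.2 and a q-value of 0.92. That start lies inside the annotated first exon of Gprk2, a G protein-coupled receptor kinase gene read in the opposite direction, which starts 207 bp away. With only the outermost start of each gene counted, PNPase dropped out, leaving 2 of the 10 genes, beside 4.39% of all protein-coding genes. No other gene had a start within 500 bp of the PNPase summit.

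Lon encodes the ATP-dependent protease of the mitochondrial matrix (FBgn0036892, 3L 19607857 to 19612199, minus strand). Its thresholded peak (3L 19612249 to 19612349) had a value of 246, rank 153 of 1290 and 131 among nuclear peaks. The summit lay 102 bp upstream of the only annotated Lon start. It fell in a divergent promoter, because PIG-F, a gene of glycosylphosphatidylinositol anchor synthesis, starts 256 bp away in the other direction. The summit was 154 bp from the PIG-F start, so the peak could be counted for either gene, with Lon the nearer. The summits of the replicates lay 26 bp apart.

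Among the 3 thresholded peaks, that of Lon had the ratio of replicate values farthest from the median of such peaks. Its value was 166 in replicate 3 (rank 75 of 13396) and 72.5 in replicate 4 (rank 564 of 13455). The ratio of the replicate 3 to the replicate 4 value was 2.29, and 97.9% of the 1267 nuclear thresholded peaks found in both replicates had a lower ratio. The median ratio over those peaks was 0.94, with 0.59 and 1.58 as 10th and 90th percentiles. At PNPase it was 0.73 and at mtSSB 0.70, both inside that range. Lon nevertheless had the lowest q-value of each replicate list, 0.0064 in replicate 3 and 0.013 in replicate 4, values that 1645 and 882 regions share.

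The third gene, mtSSB, encodes the protein that coats single-stranded mitochondrial DNA during replication (FBgn0010438, 3R 16204194 to 16205250, minus strand). Its thresholded peak (3R 16205308 to 16205697) had a value of 98.4, at rank 1136 of 1290. It stood close to the lowest thresholded value, 92.4. Its value was 42.5 in replicate 3 (rank 1494 of 13396) and 60.3 in replicate 4 (rank 853 of 13455). It ranked outside the first 1290 regions of replicate 3 and inside those of replicate 4. With the first 1290 regions of replicate 3 alone, mtSSB was not called, which left 2 of the 10 genes. The thresholded and replicate 4 summits both lay 253 bp upstream of its only start, and the replicate 3 summit lay 211 bp upstream, 42 bp away. No other gene had a start within 500 bp of the thresholded summit, and the nearest other protein-coding start, that of CG31287, lay 1879 bp from the mtSSB start.

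**Figure D2:**
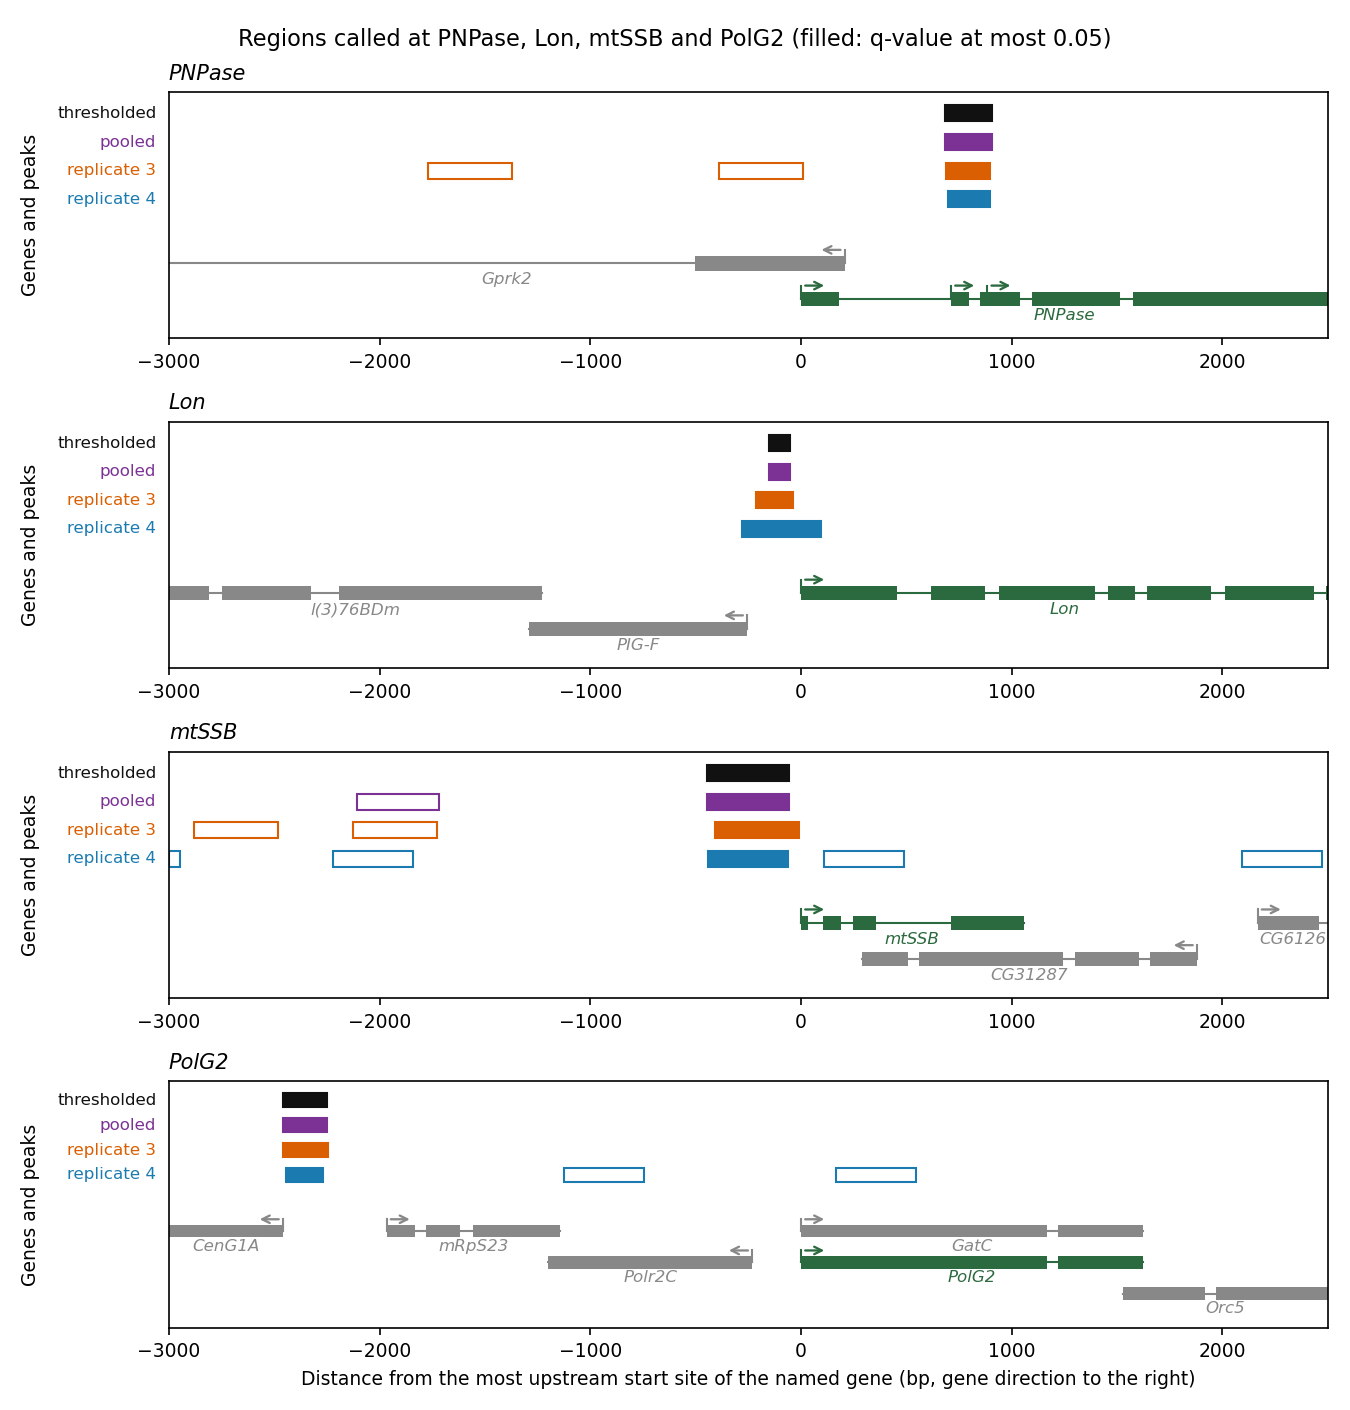
Called regions at the PNPase, Lon, mtSSB and PolG2 loci, drawn against annotated exons (boxes) and start sites (arrows), with the x axis in bp from the most upstream start of the named gene and filled boxes for q-values of 0.05 or less. The PNPase region covers the inner start sites, the Lon region sits between the Lon and PIG-F starts, the mtSSB region lies upstream of its start, and the high region near PolG2 lies between CenG1A and mRpS23.

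The width of the called region also differed among the 3 genes in the thresholded list. The PNPase peak was 222 bp wide, the Lon peak 101 bp and the mtSSB peak 390 bp, a width shared by 90.5% of thresholded peaks. In replicates 3 and 4 the widths were 211 and 199 bp at PNPase, 179 and 380 bp at Lon, and 400 and 380 bp at mtSSB. A width of 380 bp was also that of replicate 4 background regions, such as the PolG2 one with a q-value of 0.89. In replicate 3, 400 bp was likewise the width of background regions, such as the mTTF one with a q-value of 0.55. Equal widths at Lon and mtSSB in replicate 4 thus do not show an equal extent of recovery. Over all 1268 nuclear thresholded peaks the replicate summits lay a median of 25 bp apart (quartiles 10 and 52 bp). The distances at Lon (26 bp), PNPase (35 bp) and mtSSB (42 bp) lay within those quartiles. In order of value within the thresholded list, the nearest promoter peaks to PNPase were those at mRpS10 and Art3 (594) above and CenG1A and mRpS23 (546) below. Of these genes, mRpS10 and mRpS23 encode proteins of the mitochondrial ribosome. The lower of these peaks lay nearer to the CenG1A start than to that of mRpS23, and Art3 shares the higher one. Lon stood between CG3961 (247) and TRAM (244), and mtSSB between CROT with CG12877 (98.4) and Trl with CG42507 (98.3).

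**Figure D3:**
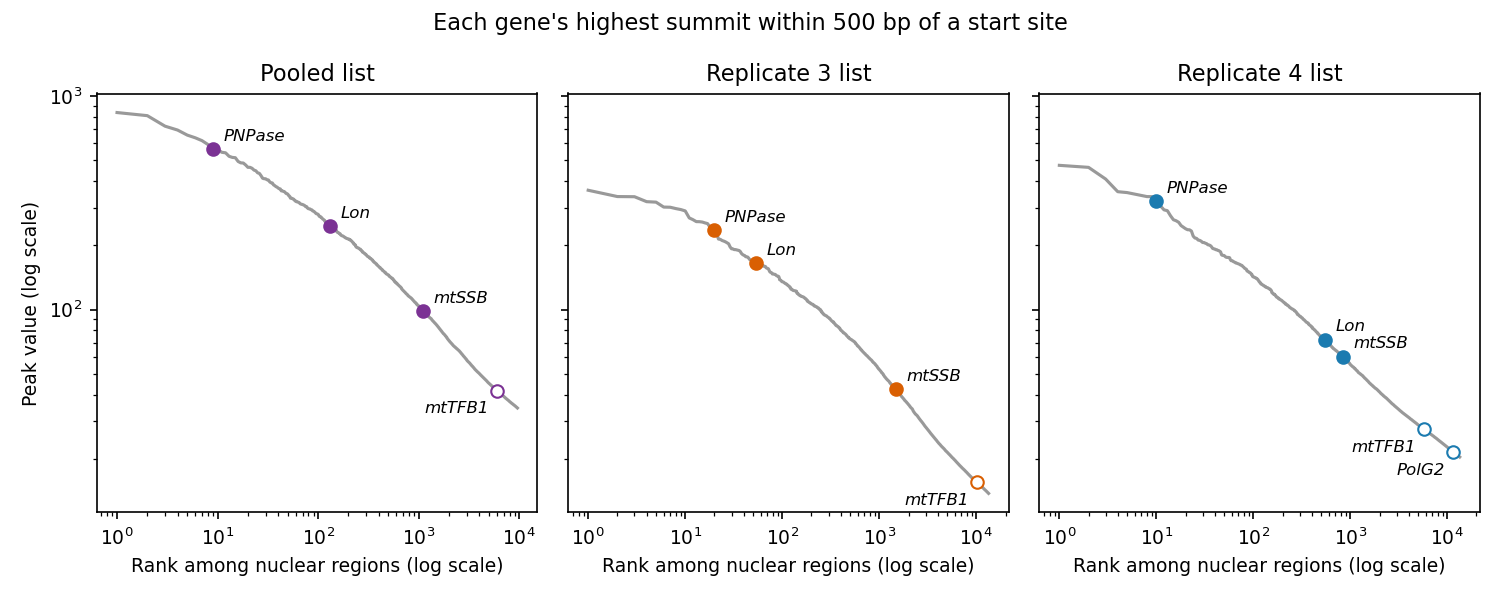
Peak value against rank for the nuclear regions of the pooled, replicate 3 and replicate 4 lists (grey lines, log axes), with the highest summit of each of the 10 genes that has one within 500 bp of a start site. Filled points have q-values of 0.05 or less. PNPase sits near the top of every list, Lon is lower in replicate 4 than in replicate 3, and mtTFB1 and PolG2 sit among the low regions.

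**Figure D4:**
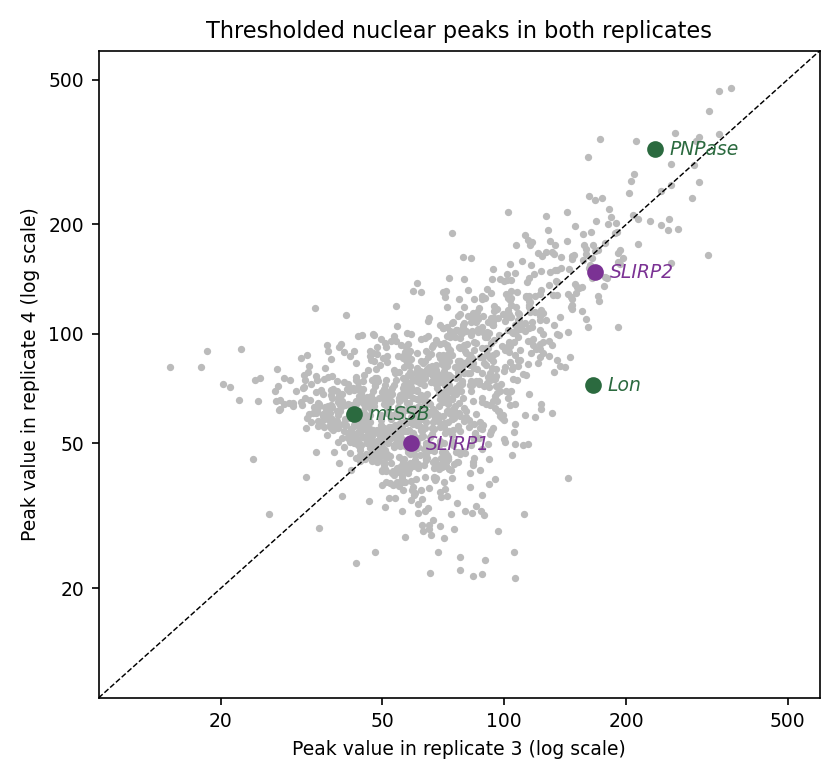
Value in replicate 4 (y axis) against value in replicate 3 (x axis), both on log scales, for the 1267 nuclear thresholded peaks found within 500 bp in both lists, with a dashed line of equal values. PNPase and mtSSB lie above the line, and Lon lies below it, at 166 and 72.5. Because the scale of the value differs between lists, the side of the line alone does not show a difference in recovery. SLIRP1 and SLIRP2, RNA-processing genes outside the 10, are in purple.

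TFAM itself, the gene of the precipitated protein (FBgn0038805, 3R 20575245 to 20577010, minus strand), had no summit within 500 bp of its start in any of the 4 lists. The nearest was a replicate 4 summit 567 bp inside the gene, with a value of 28.4 and a q-value of 0.49. A higher replicate 4 summit lay 832 bp inside the gene (value 41.2, q-value 0.072). Near it was a pooled summit 821 bp inside (value 45.6, q-value 0.44), and replicate 3 had no summit inside the gene. A pooled summit with a value of 71.4 (q-value 0.024, rank 2036 of 9598) lay 369 bp beyond the 3' end of the gene, outside any annotated gene. Replicate 4 had a summit at the same base (value 49.2, q-value 0.021), and replicate 3 had one 8 bp away with a value of 17.5 and a q-value of 0.57. The region thus passed a q-value of 0.05 in 1 replicate and not in the other, and its pooled value was below the lowest thresholded value. Counting pooled regions with q-values of 0.05 or less within 2 kb of the gene, TFAM joined the 3 others, which made 4 of the 10, beside 19.9% of all protein-coding genes. Reads from the tagged copy and from the native gene cannot be told apart in these lists.

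PolG2, the accessory subunit of the mitochondrial DNA polymerase (FBgn0004407, 2L 13831482 to 13833105, minus strand), had 1 summit within 500 bp of its start. This was a replicate 4 summit 357 bp inside the gene with a value of 21.6 and a q-value of 0.89, near the bottom of that list (rank 11603 of 13455). Replicate 4 also had a summit 934 bp upstream, with a value of 28.2 and a q-value of 0.50. Its start is shared with GatC, a gene of glutaminyl-tRNA synthesis. A high peak lay just outside the 2 kb limit. It stood between the divergent starts of mRpS23 and CenG1A (2L 13835354 to 13835564), 2361 bp from the PolG2 start, with a value of 546 and rank 11 among nuclear peaks. Its value was 258 in replicate 3 and 293 in replicate 4. The Polr2C and mRpS23 genes lie between it and PolG2, so it was not counted for PolG2.

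None of the 3 genes for factors of mitochondrial transcription had a thresholded summit within 2 kb. Only 12.0% of all protein-coding genes had one, so its absence from 3 genes does not set them apart. The gene for mtTFB2, which helps the mitochondrial RNA polymerase to start (FBgn0037778, 3R 10045574 to 10047260), had no summit within 500 bp of its start. The nearest was a replicate 4 summit 1820 bp downstream (value 24.6, q-value 0.72), and the nearest pooled summit lay 1837 bp downstream (value 38.3, q-value 0.78). mTTF, a protein that binds mitochondrial DNA and stops transcription (FBgn0028530, 2L 14347239 to 14348790), had no pooled summit within 2 kb and 1 replicate 3 summit (value 17.8, q-value 0.55). For mTerf3, a member of the same protein family (FBgn0037008, 3L 20519590 to 20520772), the nearest pooled summit was 2492 bp from the start (value 45.2, q-value 0.46).

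The gene for mtTFB1, a methyltransferase of mitochondrial ribosomal RNA (FBgn0261381, 3L 11708979 to 11710570), was the only other gene with a summit near its start in all 3 lists that include background. The pooled summit lay 300 bp upstream (value 41.8, q-value 0.60), the replicate 3 summit 164 bp upstream (15.6, q-value 0.78) and the replicate 4 summit 488 bp upstream (27.6, q-value 0.54). The replicates thus disagreed on the position by more than the upper quartile (52 bp) of nuclear thresholded peaks, and all 3 q-values were above 0.05. Its start is shared with Ccdc56, a gene of cytochrome c oxidase assembly. The gene bsf, whose product stabilises mitochondrial messenger RNA (FBgn0284256, 2L 18449517 to 18454587), had no pooled or replicate 3 summit within 2 kb. Its 2 replicate 4 summits had values of 28.5 and 21.9 and q-values of 0.49 and 0.88.

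The 10 genes share features that did not enter their choice. They lie on 2L (3 genes), 3L (3 genes) and 3R (4 genes). Their median length was 1655.5 bp, beside 2166 bp for protein-coding genes in general, and 9 of the 10 have 1 start site, as do 73.5% of protein-coding genes. For 8 of the 10, another protein-coding gene starts within 500 bp of the outermost start, which holds for 30.2% of protein-coding genes. Closely spaced starts give 1 summit several genes to be counted for. Of the 3 thresholded summits, only that of Lon lay within 500 bp of the start of a second gene. With each summit counted only for the nearest protein-coding start, the 3 genes were called again, beside 4.02% of all protein-coding genes.

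The sequences were searched on both strands for 8 strings. The DRE was searched as TATCGATA and the E-box as CACGTG. The GAGA motif was searched as GAGAG and the TATA motif as TATAAA. The cores of the promoter elements Motif 1 and Motif 6 were searched as GGTCACAC for the first and GGTATTTT for the second. The last strings were GGCAGCGC and CACAGC, which are named here by their letters. A match is a match of letters and not a shown site. In the PNPase and Lon windows printed above, no DRE, E-box, GAGA, Motif 1, Motif 6 or GGCAGCGC string was present. The Lon window held TATAAA 2 times, beside 34.5% of all nuclear thresholded windows with at least 1 match. The PNPase window held none of the 8 strings. The A+T content was 70.1% at Lon and 63.2% at PNPase, on either side of a median of 64.7% for nuclear thresholded windows.

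Promoters from 250 bp before to 50 bp after the outermost start were read for the 9 genes other than mtSSB. Of these, 1 held the full DRE, mtTFB2, beside 9.36% of all protein-coding promoters. The 6-letter core of that element, ATCGAT, was added after the promoters had been seen, and every full DRE contains it. It was present in bsf (2 matches), PolG2 and mtTFB2, which is 3 of the 9, beside 23.3% of all promoters. The mtTFB2 promoter is printed to show where these letters lie, with capitals for the full element, at chr3R:10045324-10045623 (plus strand). It begins 250 bases before the start.
mtTFB2: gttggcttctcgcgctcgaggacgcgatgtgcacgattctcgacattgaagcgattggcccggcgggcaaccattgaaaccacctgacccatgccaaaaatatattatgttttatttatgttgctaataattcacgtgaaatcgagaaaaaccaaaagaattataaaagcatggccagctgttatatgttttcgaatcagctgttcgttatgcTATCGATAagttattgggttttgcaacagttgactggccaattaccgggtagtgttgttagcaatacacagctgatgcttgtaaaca

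In mtTFB2 the full element began 37 bases upstream of the start, and no list had a summit within 500 bp of that start. Motif 1 core letters were present in the mtTFB1 and mTerf3 promoters (7.70% of all promoters), and GAGAG in those of bsf and PNPase (29.7%). TATAAA was present in 6 of the 9 promoters, those of TFAM, PolG2, mtTFB2, mTTF, mTerf3 and Lon, beside 45.8% of all promoters. The mtTFB2 promoter also held the E-box, which 586 of the 13945 promoters had, and CACAGC (13.6% of all promoters). The Motif 6 core and GGCAGCGC were in none of the 9.

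Other nuclear genes of the same pathways were taken from a list of 30 symbols, of which 28 were found in the annotation. Of the 28, 2 had a thresholded summit within 500 bp of a start, beside the 5.35% of all protein-coding genes. These were SLIRP1 and SLIRP2, both among the 8 genes of RNA processing. In mammals SLIRP is the RNA-binding partner of LRPPRC, the counterpart of bsf. The SLIRP2 peak (3R 8650763 to 8651152) had a value of 312, rank 90 of 1290, with its summit 126 bp upstream of the start. The start of Mkk4, a kinase gene, also lay within 500 bp. The SLIRP2 peak had a value of 167 in replicate 3 and 148 in replicate 4. The SLIRP1 peak (X 21319272 to 21319661) had a value of 110.2, rank 910, with its summit 171 bp upstream of a start that SLIRP1 shares with anox. Its value was 58.9 in replicate 3 and 50.1 in replicate 4. At q-values of 0.05 or less, 4 of the 28 had a replicate 3 summit at a start, beside 11.9% of all protein-coding genes. In replicate 4, 2 had one, beside 6.81%. Only SLIRP1 and SLIRP2 had one in both replicates, for which the share over all genes was not computed. The thresholded list comes from these same replicates.

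The rest of that list had no thresholded summit at a start. None of 5 replication genes, such as PolG1 (the catalytic polymerase subunit) and mtDNA-helicase, was called. Nor was either of the 2 transcription genes, PolrMT (the mitochondrial RNA polymerase) and mTerf5, nor any of 8 translation factor genes or 5 protease genes. Over all protein-coding genes the share with such a summit was 5.35%. Groups this small can lack one at that share, so the roles were not compared. Of these 20 genes, EndoG, a mitochondrial nuclease gene, and mEFTu2, an elongation factor gene, had a replicate 3 summit with a q-value of 0.05 or less (values 27.8 and 33.7). The share of all protein-coding genes with such a replicate 3 summit was 11.9%. EndoG had a q-value of 0.59 in replicate 4, and mEFTu2 had no replicate 4 summit within 500 bp.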

How the data were processed

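Peak lists of 2 samples, biological replicates 3 and 4 of 1 group, were analysed on dm6. Per the deposited file descriptions, the authors called peaks and background for each replicate and for both together against a control alignment, and derived the thresholded list by the irreproducible discovery rate. The aligner and caller were not given in the sources used here. Column 7 of the deposited lists is a score from the authors' caller, here called the value, and column 9 is the −log10 of a q-value, which was turned back into q. Values were ranked only within a list. The lists hold no read counts, so the depth is unknown. Labels of both samples say biological replicate, with a biosample each.

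Genes and start sites came from Ensembl release 115 (BDGP6.54), without transposable elements, and sequence from the RefSeq Release 6 genome, whose chromosome lengths held all peak ends. Coordinates count from 1. The sequence at mtSSB is not reported here. The dm3 lists were not used here. Python 3.11.15, pandas 2.3.3 and numpy 2.4.6 were used. The assignment of summits was tested on simulated data. The members, lists and motifs were chosen with earlier results of these data known. Named genes are all members, genes sharing their summits, their neighbours in value, and pathway genes called in the thresholded list or in both replicates at a q-value of 0.05 or less. EndoG and mEFTu2 were named after their values were seen.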

Additional observations from a re-analysis of the deposited data

How the results depend on the processing

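The count of genes with a thresholded promoter summit was 3 of 10. It was 2 with a window of 200 bp or the higher-valued part of the list, split at its median (PNPase and Lon in both), and 2 with the outermost start only (Lon and mtSSB). It was 3 with a window of 1000 bp, with any base of the peak, and with the nearest start only. Over all protein-coding genes the share was 3.49% with 200 bp and 2.92% with those higher values, against 5.35%. That share was 4.39% with the outermost start, 6.46% with 1000 bp, 5.88% with any base and 4.02% with the nearest start. With the first 1290 regions of 1 replicate in place of the thresholded list, the count was 2 to 3 and the share 5.13% to 5.53%: mtSSB was lost without replicate 4. Inside the gene body alone, 1 gene remained (PNPase), beside 4.37% of all protein-coding genes. With 2.5 kb, a distance added after seeing the data, PolG2 joined to make 4, beside 13.2%. In replicate 4 the count of 5 (28.8% of all protein-coding genes) became 3 (6.81%) at q-values of 0.05 or less. It became 2 with a window of 200 bp and 6 with 1000 bp, where TFAM joined. The share over all genes was not computed for either window. Percentiles moved with the list, since the thresholded list holds only high peaks. No paired analysis was possible because there is only 1 group. No read counts were available, so what depth limits could not be computed.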
